A study of Mus musculus with 3 samples.

Results

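The mitochondrial ribosomal protein genes were taken as all probes, other than control spots, whose gene name in the array files is Mrpl or Mrps followed by a number. This gave 118 probes of 74 genes among the 41174 probes and 29273 gene names of the array. EpH4-PR cells supplied the RNA hybridised to 3 Agilent whole mouse genome arrays. EpH4 is a mouse mammary epithelial cell line, and EpH4-PR cells carry a stably transfected progesterone receptor, PR-A, in selected clones. The cells were grown in DMEM with 10% FBS to about 75% confluence and received no other treatment that the labels name. On every array EpH4-PR RNA was labelled with Cy5 and a commercial mouse reference RNA (Stratagene mouse standard) with Cy3. Each value below is a log2 ratio of EpH4-PR RNA over that reference RNA, so it gives a level relative to the reference and not an effect of PR. Dyes were not swapped, so dye and sample cannot be told apart. Arrays of the vector control line EpH4-EV were not analysed here.

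Mitochondria keep a small genome that encodes core subunits of the respiratory chain and the RNAs of their own ribosome. The proteins of this ribosome are encoded in the nucleus, made in the cytosol and imported. Mrpl genes encode proteins of the large subunit, which holds the peptidyl transferase center, and Mrps genes mostly encode proteins of the small subunit, which reads the mRNA. Some of these proteins have a counterpart in bacterial ribosomes and others occur only in mitochondria. In the mammary epithelium, as in other tissues, this machinery supplies the subunits that oxidative phosphorylation needs.

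The promoters of such genes are known for binding sites of nuclear respiratory factor Nrf1, of Ets factors such as Gabpa, and of Yy1. RefSeq promoter windows (GRCm38.p6, 250 bases before to 50 after the transcription start) were at hand for 65 of the 74 genes, and those of Mrpl13, Mrpl15, Mrpl19, Mrpl38, Mrpl4, Mrpl54, Mrps28, Mrps34 and Mrps35 were not used here. The letters searched on both strands were GCGCANGCG for Nrf1, CCGGAAGT for Ets factors and AAGATGGC for Yy1, each searched on its own, so matches of different motifs may overlap. For each motif, the genes with the highest and the lowest mean ratio among those holding it between 100 bases before and 30 after the start are printed, 5′ to 3′ on the gene's strand, with all matches to the 3 motifs in capitals.
Mrps9 (chr1:42851133-42851262, plus strand): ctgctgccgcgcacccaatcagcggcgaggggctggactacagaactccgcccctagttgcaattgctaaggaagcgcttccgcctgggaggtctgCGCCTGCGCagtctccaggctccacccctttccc
Mrps26 (chr2:130563657-130563786, plus strand): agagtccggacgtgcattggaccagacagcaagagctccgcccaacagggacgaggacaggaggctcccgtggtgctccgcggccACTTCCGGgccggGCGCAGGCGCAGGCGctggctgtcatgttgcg
Mrps27 (chr13:99344686-99344815, plus strand): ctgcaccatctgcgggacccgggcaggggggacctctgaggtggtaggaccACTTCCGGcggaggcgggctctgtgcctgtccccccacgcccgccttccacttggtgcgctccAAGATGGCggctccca
Mrpl33 (chr5:31613851-31613980, plus strand): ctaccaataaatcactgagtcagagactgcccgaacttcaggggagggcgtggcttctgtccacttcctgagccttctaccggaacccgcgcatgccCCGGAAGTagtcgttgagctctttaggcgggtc
Mrpl36 (chr13:73330909-73331038, plus strand): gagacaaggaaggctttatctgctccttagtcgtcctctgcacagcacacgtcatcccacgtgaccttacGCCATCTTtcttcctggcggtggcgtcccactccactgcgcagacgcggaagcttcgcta
Mrps18a (chr17:46110904-46111033, plus strand): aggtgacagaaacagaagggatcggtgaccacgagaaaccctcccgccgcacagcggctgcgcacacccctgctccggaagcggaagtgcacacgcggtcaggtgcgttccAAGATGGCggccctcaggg
The windows of Mrps9 and Mrps26 were chosen for Nrf1, those of Mrps27 and Mrpl33 for the Ets motif, and those of Mrpl36 and Mrps18a for Yy1. Mrps26 held 2 overlapping Nrf1 matches beside 1 Ets match, and Mrps27 held 1 Ets match and 1 Yy1 match.

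Across the 65 promoters, the Nrf1 motif was found in 15 (23.1%), against 6.25% of all 32851 promoters of this length and 8.58% of the 21263 promoters of protein-coding genes. The Ets motif was found in 11 (16.9%), against 3.89% of all promoters and 5.15% of the protein-coding ones. The Yy1 motif was also found in 11 (16.9%), against 2.75% and 3.05%. At least 1 of the 3 motifs was present in 34 member promoters (52.3%), against 11.8% of all promoters and 15.3% of protein-coding ones. The promoters of Mrpl32, Mrps26 and Mrps27 (3 members, or 4.62%) held 2 different motifs. At least 2 were found in 1.03% of all promoters and 1.42% of protein-coding ones. No member promoter held all 3, which 7 of all promoters did. Of the member promoters with an Nrf1 motif, 11 of 15 (73.3%) held it in the 100 bases before the start, as did 8 of 11 (72.7%) with the Ets motif, against 60.7% and 59.7% of the protein-coding promoters with these motifs, while 7 of 11 with the Yy1 motif held it within the first 50 transcribed bases. Among protein-coding promoters that held the Yy1 motif, 49.2% held it in those 50 bases. The median ratio was 0.31 for the genes with the Nrf1 motif, -0.11 for those with the Ets motif and 0.43 for those with the Yy1 motif, on the log2 scale. The genes without each of these motifs had medians of 0.15, 0.24 and 0.16. Genes rather than samples are compared there, and a match of letters is no sign that the factor binds.

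Before the ratios were read, the label and the signal were checked. Of 9 probes for 7 epithelial markers, 8 exceeded the reference by 1 log2 unit or more, and the Krt19 probe read -2.62. Of 14 probes for 7 fibroblast markers, 12 were lower and none was higher. Of 9 leukocyte probes 5 were lower, as were 1 of 5 endothelial and 1 of 3 adipocyte probes, and none was higher. Clear signal in both channels on every array, which depends on the reference too, was seen for 0 endothelial, 1 adipocyte and 4 leukocyte probes. Among the 4 was Cd3e probe A_51_P455681, which averaged 0.11 and was not called. Pgr, the transfected gene, was represented by 2 probes whose Cy5 signal cleared background on 1 array each (means -0.11 and -0.19). By these probes the transfected receptor was not clearly detected, so that part of the label was not borne out by the arrays. Pairs of arrays correlated at r = 0.923 to 0.952 over all probes and at 0.947 to 0.984 over 117 member probes, given as a description across probes that share the reference RNA. The labels do not say whether the 3 replicates were separate cultures, so the tests measure only the spread between these samples.

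Member transcripts were readily measured. All but 4 of the 118 member probes (114, or 96.6%) were flagged by the scanner software as well above background in Cy5 and Cy3 on every array, against 62.5% of all probes, and no member spot was saturated. Their median brightness, the mean log2 intensity of both channels, was 9.41, brighter than 90.7% of all probes. Negative control spots had median Cy3 intensities of 119, 121 and 91.8 on replicates 1, 2 and 3. On all 3 arrays 17 member probes read no more than 1.5 times that control in Cy3, and these are called dim below. Of the dim probes 8 were higher, 2 lower and 7 not called.

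Relative to the reference RNA and to probes of like brightness, more mitochondrial ribosomal protein probes were higher in EpH4-PR cells than were lower. At an adjusted p under 0.05 (limma, Benjamini-Hochberg over all 41174 probes), 62 of 118 member probes were higher, or 52.5%, where 25.7% of all probes were. Another 24 were lower, or 20.3%, where 24.6% of all probes were, and 32 passed in neither direction. Differences of at least 1 log2 unit were few: 5 member probes were higher by that much (4.24%, against 2.26% of all probes) and 1 was lower (0.847%, against 3.83%). By gene, 36 genes had every probe higher, 14 had every probe lower, 16 had no probe called, 4 had some probes higher, 2 had some lower and 2 had probes called both ways. Only 1 probe was present for 23 of the 36 genes and for 10 of the 14. The same counts were not made for all genes of the array.

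The median log2 ratio of the members was 0.21, 0.19 and 0.20 on replicates 1, 2 and 3, and 0.20 for the mean over arrays, where the median of all probes was -0.01. The quartiles of the members were -0.06 and 0.43, and the whole range ran from -1.06 to 1.42. On every array 75 member probes were above 0 and 30 were below 0, while 13 changed sign between arrays, a count not made over all probes. By the mean over arrays 83 members were above 0 and 35 below, against 19954 and 21220 of all probes. Among the 5355 probes within the members' interquartile range of brightness, 2846 were above 0 and 2509 below. The spread between members was wide compared with the spread between arrays: the SD over the 118 probes was 0.43, and the median SD of a probe over the 3 arrays was 0.047. Without replicate 2 the number of lower probes was 13 in place of 24.

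**Figure D1:**
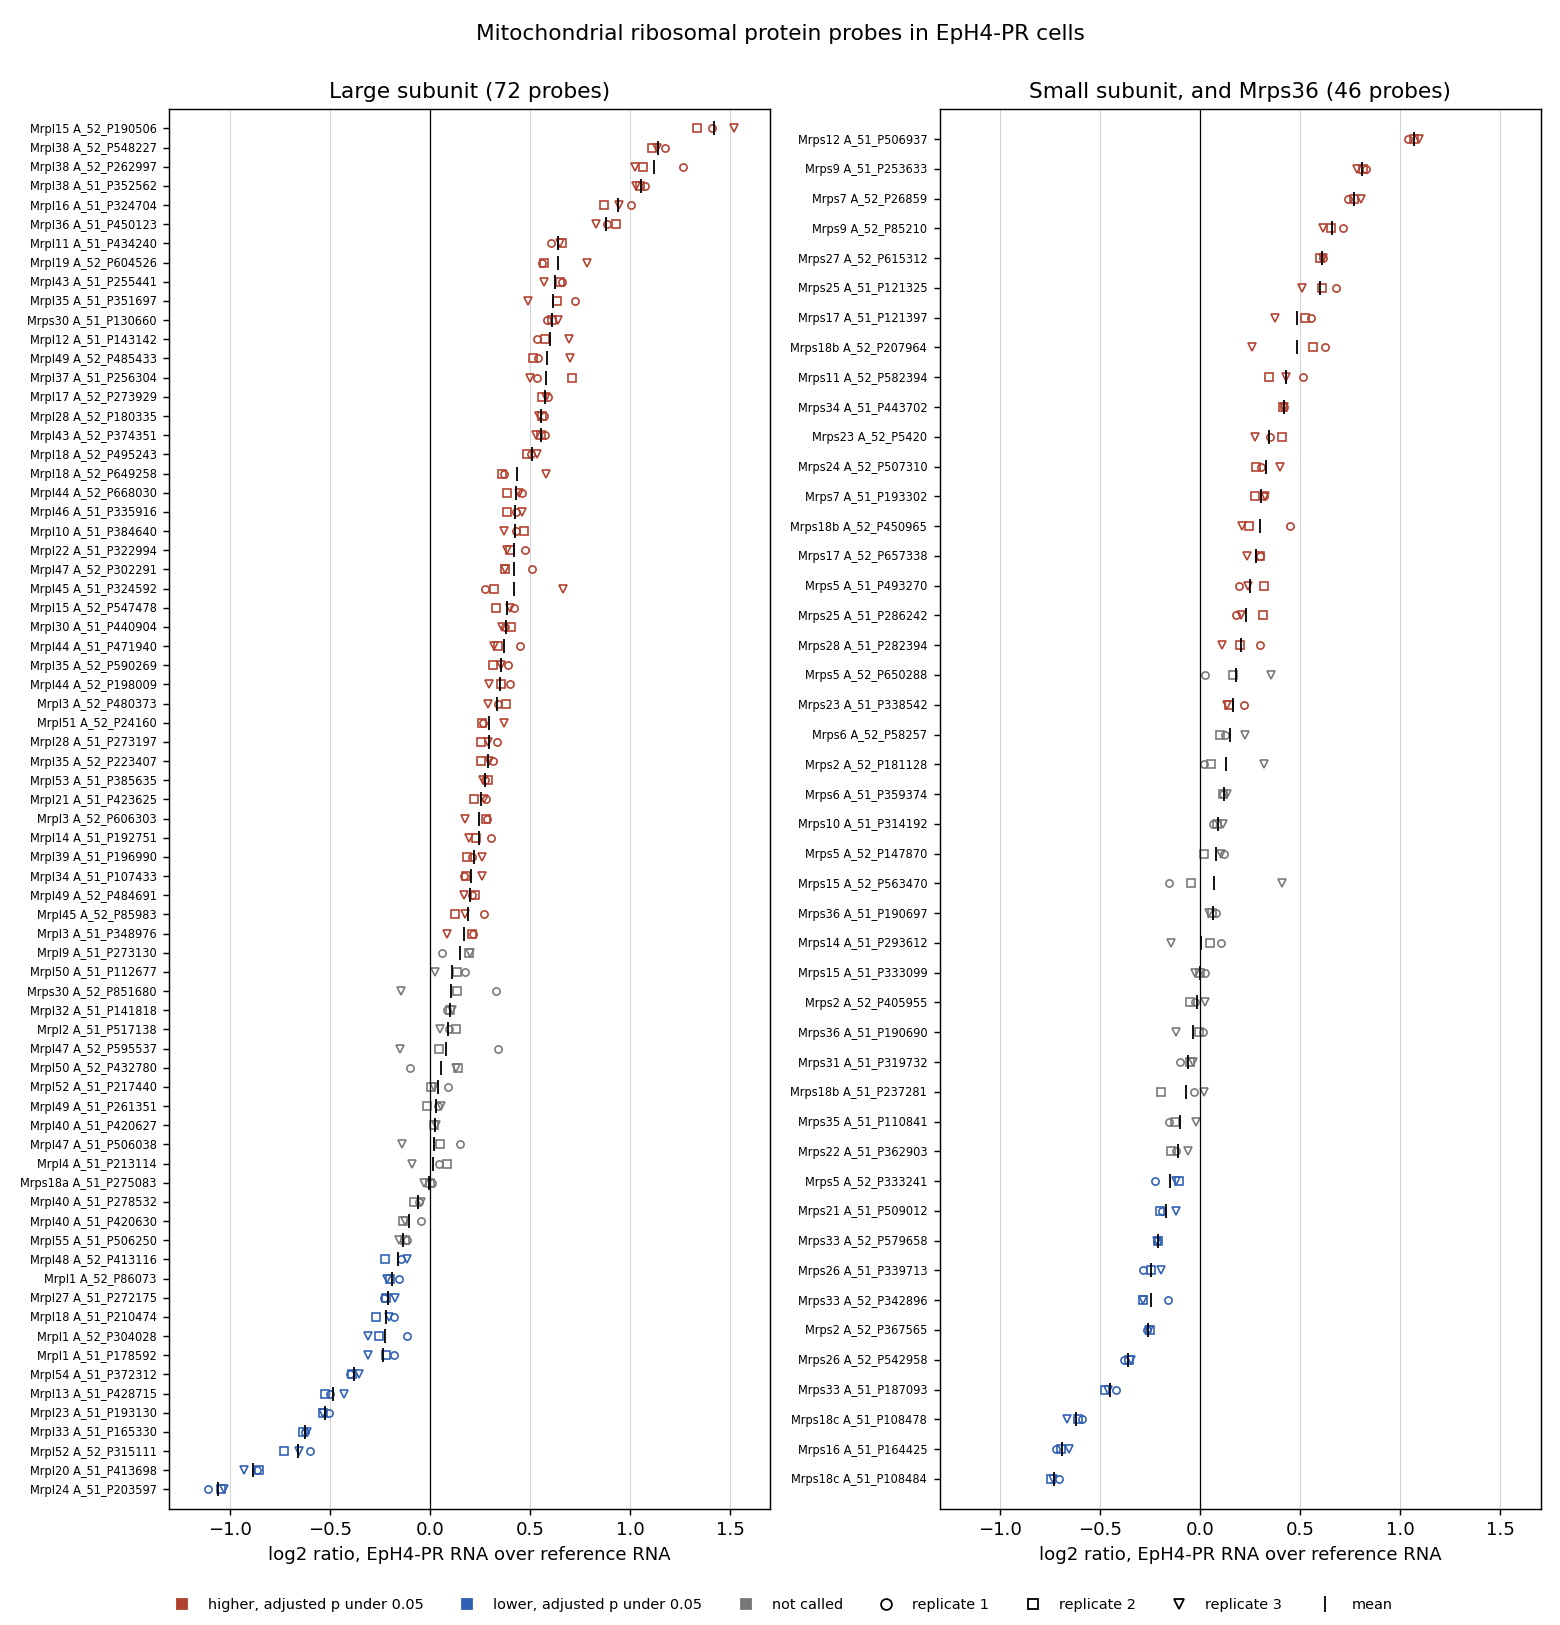
Log2 ratio of EpH4-PR RNA over reference RNA for each of the 118 member probes (vertical axis, sorted by mean) on each of the 3 arrays, with the mean as a tick and the colour giving the call. The 3 arrays of a probe lie close together compared with the span from Mrpl24 at -1.06 to Mrpl15 at 1.42, and 62 probes are called higher and 24 lower, of which 22 read above 0 under median centring.

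How the arrays are centred sets where 0 lies. Under loess, the ratio of a spot is set against spots of the same brightness on that array. Under median centring each array is shifted by 1 number, and bright spots then read red: the median ratio of all probes went from -0.24 in the dimmest class (brightness 5.5 to 6) to 1.52 in the class from 11.5 to 12. The median of the members was then 1.24, and 107 of them were called higher and 4 lower. Of the 24 probes called lower under loess, 22 read above 0 under median centring. Under median centring all 24 lay below the median of all probes of their brightness class, and all 62 higher probes lay above it. Loess takes out the same trend with brightness, so this is nearly the same comparison and no separate check. The directions given here are therefore relative to probes of like brightness. By the log ratio that the scanner made, none of the 24 lower probes was above 0 and all 62 higher probes were.

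A closer comparison was made with 5355 probes within the interquartile range of the members' brightness. Of those probes 43.6% were higher and 37.7% lower, with a median of 0.05 and an SD of 0.85, against 52.5%, 20.3%, 0.20 and 0.43 for the members. Under median centring these equally bright probes had a median of 1.16, against 1.24 for the members.

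**Figure D2:**
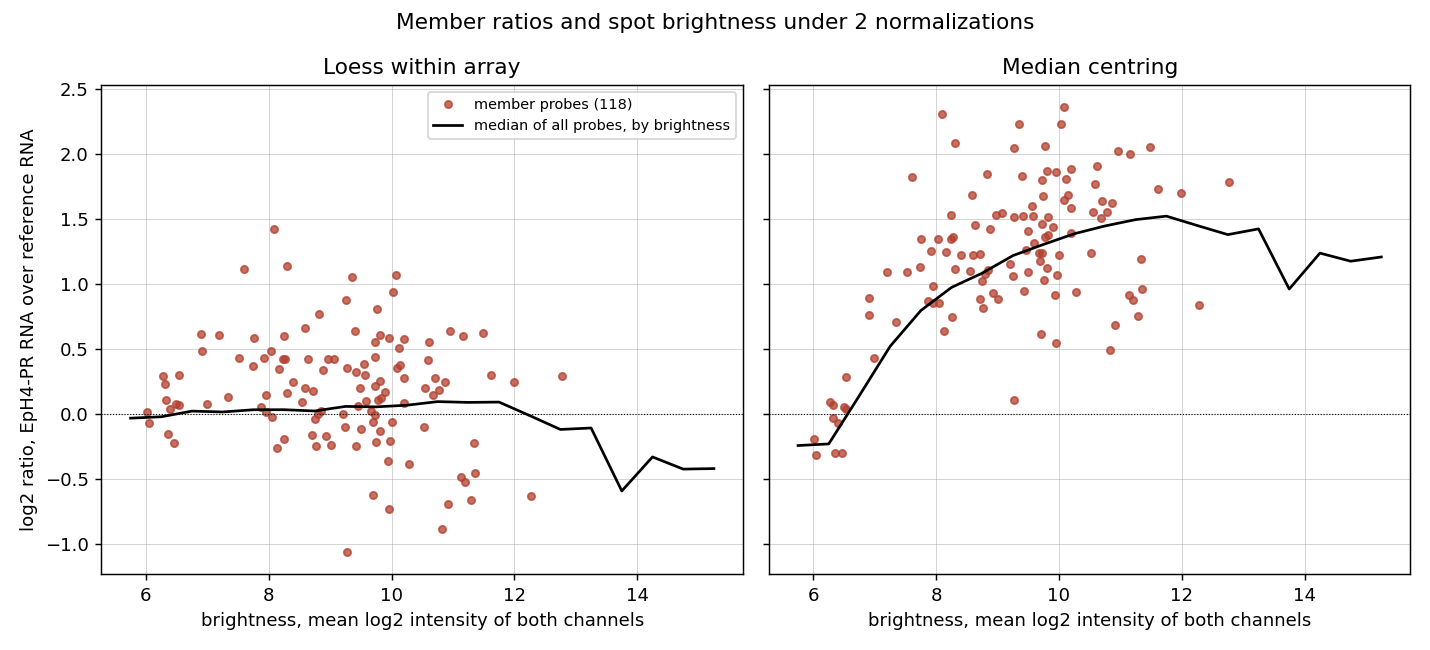
Mean log2 ratio of each of the 118 member probes (points) against brightness, the mean log2 intensity of both channels, under loess (left) and under median centring (right), with the median of all probes in classes of 0.5 brightness units holding at least 20 probes as a line. Under loess the line stays near 0 over the brightness that members have, and under median centring it climbs from -0.24 in the dimmest class to 1.52 at 11.5 with the member probes spread around it.

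The highest member ratio belonged to Mrpl15, a large subunit protein with a bacterial counterpart. Probe A_52_P190506 read 1.41, 1.33 and 1.52 on the 3 arrays, averaging 1.42 ± 0.09 (SD, n = 3) or 2.68-fold (adjusted p = 4.98e-05, limma). All 3 arrays were high, but the Cy3 signal of this probe (131 to 173) was close to the negative controls, and by the log ratio that the scanner made its mean was 2.03. The other Mrpl15 probe, A_52_P547478, was clear of the negative controls and read 0.42, 0.33 and 0.40 (adjusted p = 0.00165, limma). The arrays of both probes did not overlap, while both were above 0.

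Mrpl38, a protein found only in mitochondrial ribosomes that sits in the central protuberance of the large subunit, was high on all of its 3 probes. Probe A_52_P548227 read 1.17, 1.11 and 1.14 (mean 1.14 ± 0.03, SD, n = 3; 2.20-fold; adjusted p = 4.81e-05, limma). Probe A_52_P262997, which was dim, read 1.26, 1.07 and 1.03, and probe A_51_P352562 read 1.08, 1.05 and 1.03. The lowest and the highest of these means lay 0.09 apart, and 4 of the 5 member probes at 1 log2 unit or more were the 3 of Mrpl38 and that of Mrps12.

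Mrps12, the counterpart of bacterial S12 at the decoding center of the small subunit, had 1 probe, which read 1.04, 1.07 and 1.09 (mean 1.07 ± 0.03, SD, n = 3; 2.09-fold; adjusted p = 5.6e-05, limma). Mrpl16, which lies near the peptidyl transferase center, read 1.00, 0.87 and 0.95. Mrpl36, the counterpart of bacterial L36, read 0.88, 0.93 and 0.83. Mrps9, the counterpart of bacterial S9, followed with 0.83, 0.81 and 0.79 on probe A_51_P253633, and its other probe averaged 0.66 ± 0.05. These genes were high on every array, and the lowest value among their arrays was 0.62, for the other Mrps9 probe.

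At the other end stood Mrpl24, the counterpart of a bacterial protein that acts early in large subunit assembly and lies near the exit of the peptide tunnel. Its probe read -1.11, -1.04 and -1.03 (mean -1.06 ± 0.04, SD, n = 3; 2.08-fold lower; adjusted p = 6.23e-05, limma). Under median centring the mean was 0.11 (adjusted p = 0.0509, limma), so the direction holds only against probes of like brightness. Mrpl20, another early assembly protein in bacteria, read -0.86, -0.85 and -0.93. Mrps16, which is mutated in a human mitochondrial disease, read -0.72, -0.69 and -0.66. Both were low on all 3 arrays, and both turned to above 0 under median centring (0.49 and 0.69).

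Mrpl33 read -0.62, -0.63 and -0.61, and Mrpl23, the tunnel exit protein with a bacterial counterpart, read -0.51, -0.53 and -0.53. Mrpl23 has a pseudogene, and signal shared with it is not separated here. Probe A_52_P315111 of Mrpl52, a protein specific to mitochondria, read -0.60, -0.73 and -0.65, while its dim probe A_51_P217440 averaged 0.04 ± 0.04 (adjusted p = 0.477, limma). Of the 8 lowest measured probes, those of Mrpl33, Mrpl23 and Mrpl52 also turned under median centring, to 0.84, 0.88 and 0.75.

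The 3 Mrps18 genes encode related proteins that occupy different places in the mitochondrial ribosome, Mrps18a in the large subunit and Mrps18b and Mrps18c in the small subunit. Mrps18c, the closest in place to bacterial S18, was low on both probes. Probe A_51_P108484 read -0.71, -0.75 and -0.73, and probe A_51_P108478 read -0.59, -0.61 and -0.66 (adjusted p = 0.000152 and 0.000278, limma). Under median centring these means were 0.55 and 0.62. Mrps18a read 0.01, 0.00 and -0.03, a mean of -0.01 with a 95% interval of -0.11 to 0.10, and it was not called (adjusted p = 0.927, limma). Mrps18b probes were all dim. Probe A_52_P207964 read 0.63, 0.56 and 0.26 (adjusted p = 0.00702, limma), and probe A_52_P450965 read 0.45, 0.24 and 0.21 (adjusted p = 0.0137, limma), a call lost without replicate 1 (adjusted p = 0.0522, limma). The remaining Mrps18b probe, A_51_P237281, was not well above background in EpH4-PR RNA on any array and averaged -0.07 ± 0.11. No array of Mrps18c overlapped an array of Mrps18a, while those of Mrps18b probe A_51_P237281 overlapped the arrays of Mrps18a.

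Members that lie near each other in the ribosome did not always have like ratios. Of proteins at the stalk of the large subunit, which recruits translation factors, these were higher: Mrpl10 at 0.42 ± 0.05, Mrpl11 at 0.64 ± 0.03, Mrpl12 at 0.60 ± 0.08 and Mrpl53 at 0.28 ± 0.01 (SD, n = 3 each). Mrpl54, also placed near the stalk, was lower at -0.38 ± 0.02 (0.94 under median centring). Around the exit of the peptide tunnel, Mrpl22 at 0.42 ± 0.05 and Mrpl17 at 0.58 ± 0.02 were higher while Mrpl23 and Mrpl24 were lower. Mrpl45, which anchors the ribosome to the inner membrane at the exit, was higher on both probes (0.42 ± 0.21 and 0.19 ± 0.07). Mrpl44, an RNase III related protein linked to human cardiomyopathy, was higher on all of its 3 probes (0.35 to 0.43). Mrpl1, on the opposite side of the large subunit from the stalk, was lower on all of its 3 probes (-0.23 to -0.19), 1 of which was dim. These neighbours are examples picked after the values were known, not a full list of the proteins at each place.

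The subunits are compared as a description, since genes are not replicates. Of 72 large subunit probes (47 genes), 43 were higher (59.7%) and 13 lower (18.1%), with a median of 0.25. Of 44 small subunit probes (26 genes), 19 were higher (43.2%) and 11 lower (25%), with a median of 0.13. Over all probes 25.7% were higher and 24.6% lower. The difference between the medians of the 2 subunits was 0.13, and on single arrays it was 0.18, 0.15 and 0.13. It was 0.09 without replicate 1, 0.18 without replicate 3 and 0.27 under median centring, and the large subunit probes were also brighter (median brightness 9.63 against 8.87), whose part in the difference was not tested. Mrps18a and Mrps30 are counted with the large subunit, where their proteins sit.

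Members with and without a bacterial counterpart had like medians. The 69 probes with a counterpart had a median of 0.20, with 36 higher (52.2%) and 16 lower (23.2%). The 47 probes without one had a median of 0.20, with 26 higher (55.3%) and 8 lower (17.0%). Within the small subunit the 17 probes of proteins specific to mitochondria had a median of -0.06, with 8 higher (47.1%) and 5 lower (29.4%). The 27 with a counterpart had a median of 0.13, with 11 higher (40.7%) and 6 lower (22.2%). The 17 were spread to both sides: Mrps27 on its dim probe, Mrps25 and Mrps34 were higher (0.61, 0.60 on A_51_P121325, and 0.42), and Mrps33 and Mrps26 were lower on every probe (-0.45 to -0.21 and -0.36 to -0.24). Within the large subunit, 18 of 30 such probes were higher (60%) and 3 were lower (10%), with a median of 0.25. Among all probes the shares were 25.7% and 24.6%. Among the 5355 probes within the members' interquartile range of brightness they were 43.6% and 37.7%.

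Mrps36 keeps its ribosomal name, but its product is now placed in the oxoglutarate dehydrogenase complex, an enzyme of the citric acid cycle. It was counted in neither subunit, and its 2 probes averaged 0.06 and -0.04 without being called. Pseudogenes of Mrps36, Mrpl27 and Mrpl48 could share signal with the genes. Mrpl42, Mrpl57 and Mrpl58 stand in the files under older names that the name rule does not catch. With their probes added, 123 probes of 77 genes had a median of 0.18, with 63 higher and 25 lower.

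Several probes were present for 30 of the 74 genes, and they show how far a ratio depends on the probe. The lowest and the highest probe of a gene lay a median of 0.22 apart. These are the extremes of each gene, and the same distance was not computed for other genes of the array. The median SD of a probe between arrays, a different measure, was 0.047. In 13 genes every probe was nonetheless higher and in 4 every probe was lower. Probes lay at least 0.5 log2 units apart in 6 genes, Mrpl15, Mrpl18, Mrpl49, Mrpl52, Mrps18b and Mrps30, and in all of these but Mrpl18 and Mrpl49 a dim probe was involved.

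Mrpl18, a protein of the central protuberance, had bright probes that disagreed in sign. Probe A_52_P495243 read 0.51, 0.48 and 0.54, and probe A_52_P649258 read 0.37, 0.36 and 0.58, both called higher (adjusted p = 0.000507 and 0.00339, limma). Probe A_51_P210474 read -0.18, -0.27 and -0.21 and was called lower (adjusted p = 0.0126, limma). The arrays of the lower probe did not overlap those of the other two. Its call was lost without replicate 2 (adjusted p = 0.0935, limma), with a normexp offset of 0 (0.0809) and under the methods' test after adjustment (0.0532), and its mean was 1.20 under median centring, but under each setting tried it remained the lowest of the 3 Mrpl18 probes.

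Mrps5, a small subunit protein at the entrance of the mRNA channel, had 4 probes. A_51_P493270 read 0.20, 0.32 and 0.24 and was called higher (adjusted p = 0.00932, limma), a call lost without replicate 2 (adjusted p = 0.0708, limma), with a normexp offset of 0 (0.0542) and under the methods' test after adjustment (0.0633). A_52_P650288 read 0.03, 0.16 and 0.35, and A_52_P147870 read 0.12, 0.02 and 0.10, and neither was called. The dim probe A_52_P333241 read -0.22, -0.10 and -0.12 and was called lower just inside the threshold (adjusted p = 0.0499, limma), a call lost when any 1 array was left out (adjusted p = 0.0646 to 0.24, limma). Of Mrpl40, probe A_51_P420627 had an outlier spot on replicate 1 that was left out, so its mean of 0.03 rests on 2 arrays.

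**Figure D3:**
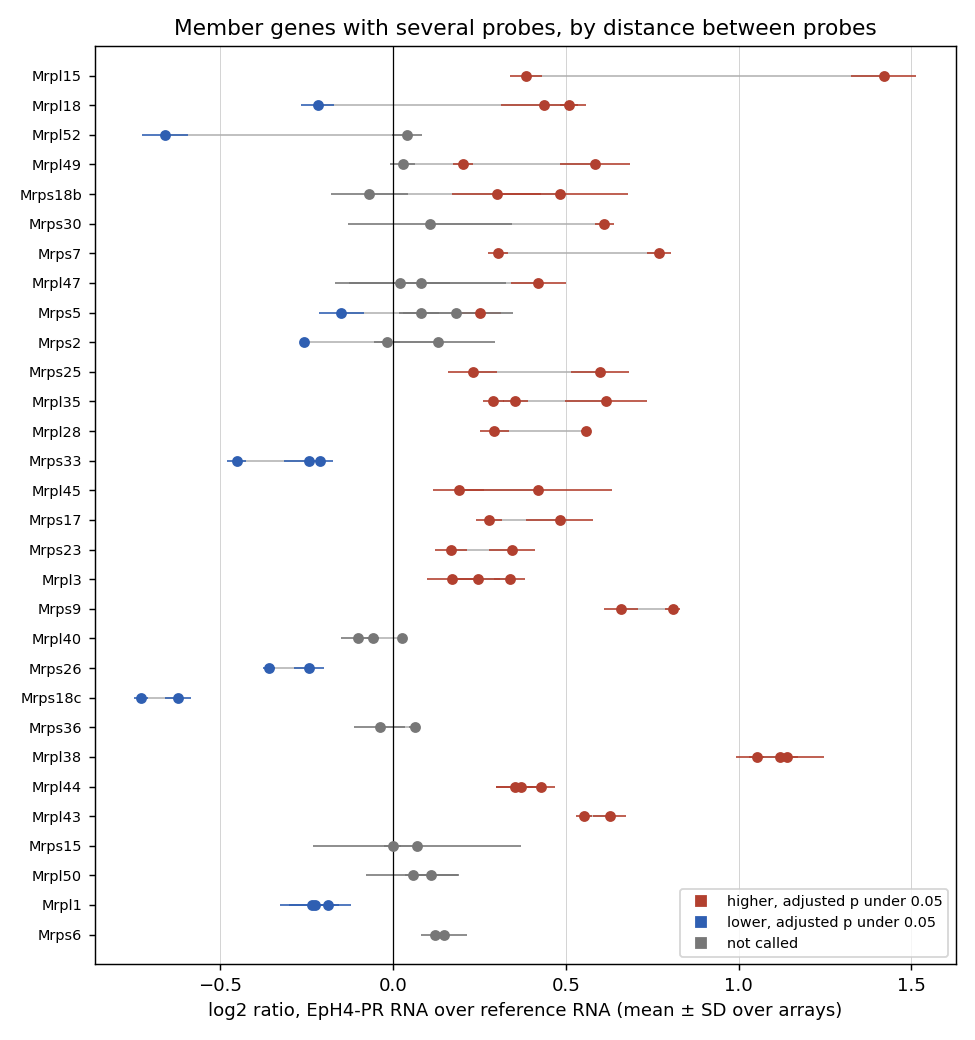
Mean log2 ratio ± SD over arrays (n = 3, and n = 2 for 1 Mrpl40 probe) of each probe of the 30 member genes with several probes, sorted by the distance between the lowest and the highest probe, with the colour giving the call. Mrpl15, Mrpl18 and Mrpl52 show the widest distances, and the 3 Mrpl38 probes lie together above 1.

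Other genes of mitochondrial translation were read from lists by function, matched by current symbol or older name. Their probes are called dim by the same Cy3 limit as the members. For comparison, 25.7% of all probes were higher and 24.6% lower. Among probes well above background in both channels on every array these shares were 34.1% and 28.8%. A list of 7 other proteins of the mitochondrial ribosome, with names in the files outside the Mrpl and Mrps series, had 12 probes. Mrpl57 and Mrpl58 are in this list under their older names, and Mrpl42 is not. Of the 12 probes 5 were higher (41.7%) and 5 lower (41.7%), with a median of 0.01. Ptcd3, a small subunit protein also called Mrps39, was the highest (1.09 ± 0.0087, SD, n = 3, on probe A_52_P431872) and Aurkaip1 the lowest (-0.84, -0.76 and -0.75). The other Ptcd3 probe averaged 0.67 ± 0.34. The Aurkaip1 ratio turned to 0.60 under median centring. Dap3, a small subunit GTP-binding protein, was lower on its bright probe (-0.33 ± 0.03) and higher on its dim one (0.28 ± 0.09).

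Factors that build the mitochondrial ribosome had probes for 22 of 25 listed genes. Of 27 probes 14 were higher (51.9%) and 5 lower (18.5%), with a median of 0.15. Rcc1l, a guanine exchange factor like protein needed for rRNA stability, read 1.07, 1.24 and 0.95 on a dim probe. Fastkd2 and Mtg2, which act in large subunit assembly, averaged 0.93 and 0.91, and the Mtg2 probe was dim. Rpusd4, a pseudouridine synthase acting on the large rRNA, was the lowest at -0.44 ± 0.09, and it read 0.65 under median centring.

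Translation factors had probes for 14 of 16 listed genes. Of 20 probes 10 were higher (50%) and 4 lower (20%), with a median of 0.24. Tufm, the elongation factor that brings aminoacyl-tRNA to the ribosome, read 0.98, 1.06 and 1.03, or 2.04-fold (adjusted p = 6.61e-05, limma). Lrpprc, which stabilizes mitochondrial mRNAs, was higher on both probes (0.70, and 0.58 on a dim probe), while its partner Slirp was lower (-0.23). Guf1, the back-translocating GTPase, was the lowest at -0.56 ± 0.03, and it read 0.64 under median centring. Gfm1, an elongation factor, had probes called both ways (0.78 and -0.34).

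The aminoacyl-tRNA synthetases of mitochondria had probes for 16 of 17 listed genes. Of 22 probes 11 were higher (50%) and 3 lower (13.6%), with a median of 0.21. Lars2, which charges the leucine tRNAs, read 1.11, 1.12 and 1.15 (adjusted p = 4.64e-05, limma), but its Cy5 spot was saturated on 2 of the 3 arrays, so no fold is given. Nars2, for asparagine, was the lowest at -0.42 ± 0.09 on the dim probe A_52_P232453. Its other probe, not well above background in either channel on any array, was called higher (0.23). Vars2 also had probes called both ways (0.63 and -0.27). Genes of mitochondrial DNA transcription and replication gave 7 higher (41.2%) and 2 lower (11.8%) of 17 probes and a median of 0.16. There the helicase Twnk was the highest (0.61 ± 0.12 on the dim probe A_52_P495372). The transcription terminator Mterf1a was the lowest (-0.43 ± 0.06 on A_52_P45724, and 0.14 under median centring).

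Nuclear regulators of mitochondrial genes gave 10 higher (55.6%) and 3 lower (16.7%) of 18 probes, with a median of 0.25. Gabpa, the DNA-binding subunit of the Ets factor named above, read 1.17, 1.09 and 1.22 on probe A_52_P126238. It averaged 1.02 on the dim probe A_51_P364984, while its remaining probe was not called (-0.14). Nrf1 was higher on both probes (0.37 and 0.38), and both were dim. Yy1 had 1 probe, which read -0.42, -0.40 and -0.53 and averaged 0.65 under median centring. Myc had probes called both ways, lower at -0.28 and -0.19 and higher at 0.30. The coactivators Ppargc1b and Pprc1 were higher (0.83 and 0.50 on the Ppargc1b probes, both dim, and 0.91 on that of Pprc1). Both Ppargc1a probes were dim, and neither was called.

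**Figure D4:**
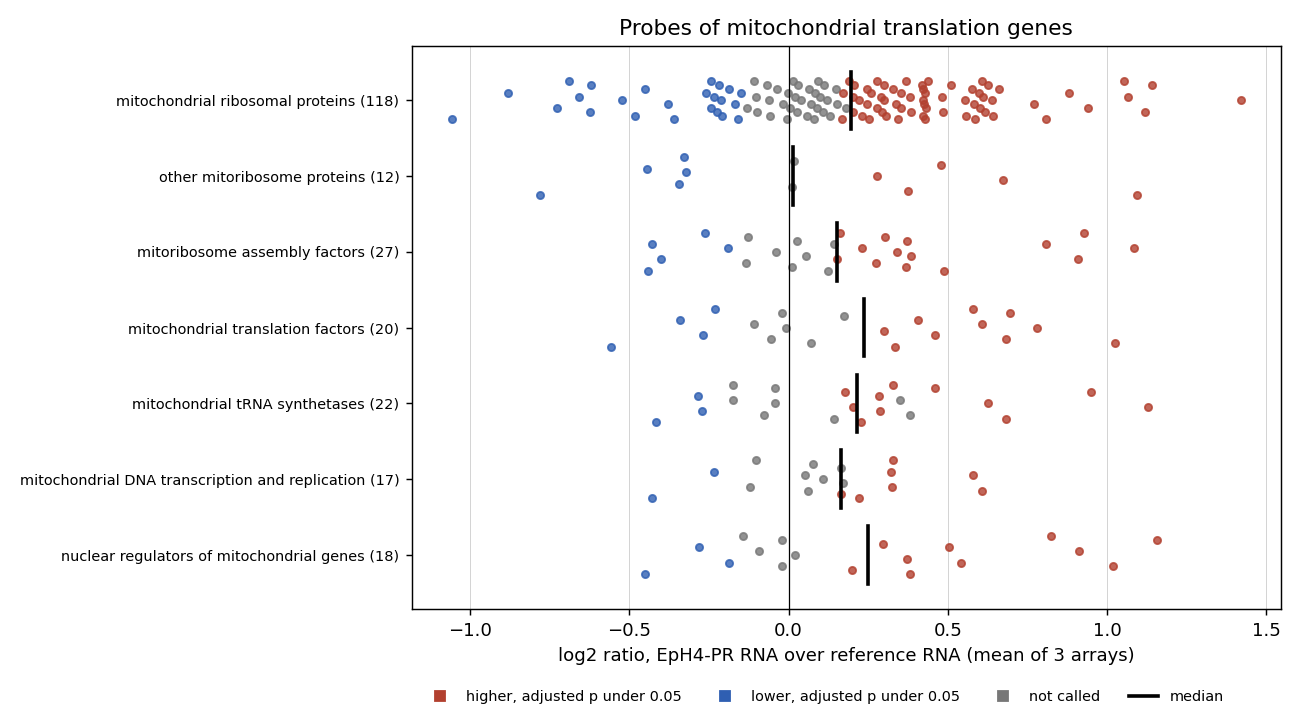
Mean log2 ratio over 3 arrays (2 for 1 Mrpl40 probe) of every probe of the mitochondrial ribosomal proteins and of the 6 lists of related genes, with the number of probes in parentheses, the colour giving the call and a bar at the median. The medians run from 0.01 to 0.25, and each list has probes called in both directions.

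Groups of like function differed from the members in the direction of most calls. Of 126 probes of cytosolic ribosomal proteins (76 gene names, leaving out the Rps6k kinase genes), 18 were higher (14.3%) and 88 lower (69.8%). Their median was -0.42, and -0.40, -0.41 and -0.44 on the 3 arrays. Of 110 probes of respiratory chain subunits (75 gene names), 28 were higher (25.5%) and 55 lower (50%), with a median of -0.15. Over all probes 25.7% were higher and 24.6% lower. Under median centring the medians of the cytosolic ribosomal and respiratory chain probes were 0.91 and 0.98, against 1.24 for the members. These groups are brighter than the members, with median brightness of 13.5 and 10.6 against 9.41, and all probes had loess medians of -0.11 in the brightness class from 13 to 13.5, -0.59 in that from 13.5 to 14, and 0.10 in that from 10.5 to 11. The part of brightness in this difference was not tested.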

How the data were processed

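The authors deposited the Agilent Feature Extraction 8.1.1.1 output of 3 two-colour arrays, with mean and median spot intensity and local background intensity in both channels for 43790 spots, and the software's own log10 ratio (Cy5 to Cy3). A comparison of 2 unnamed sides by the authors, also deposited, holds log ratios, ratios, fold changes, p-values and intensities and was not used. Mean intensity was corrected for median local background with normexp (offset 50), and loess (span 0.3) was then fitted per array. Control spots and outlier spots (150, 18 and 3) had no weight in loess and were left out after it, and spots of a probe were averaged. Different probes for 1 gene were not merged. The log2 ratios were tested against 0 with limma 3.58.1 (lmFit, eBayes; R 4.3.3) and adjusted over all 41174 probes. Brightness is the mean log2 intensity of both channels. The fit was tested on simulated data. Symbols were matched through RefSeq accessions for 100 of 118 member probes, with no symbol changed. Motifs were searched with Python 3.11.15. Precision is limited by 3 arrays.

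Members and lists were chosen with earlier results of these data known. The 8 highest and 8 lowest member probes well above background in both channels were named, with genes called both ways, the Mrps18 genes, probes at background and the extremes of each list; other members were chosen after their values were seen.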

Additional observations from a re-analysis of the deposited data

How the results depend on the processing

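The count of higher member probes was 62 (51 to 63 with 1 array left out), that of lower ones 24 (13 to 22), that at least 1 log2 unit higher 5 (5 to 5) and lower 1 (1 to 1). The median was 0.20 (0.19 to 0.21 with 1 array left out), and 0.21 above that of all probes (0.19 to 0.22). Median centring gave 107 higher, 4 lower, 80 at least 1 higher and 0 at least 1 lower, a median of 1.24 and a difference of 1.25. The scanner log ratio gave 9 probes at least 1 higher, a median of 0.27 and a difference of 0.22, and a normexp offset of 0 gave 0.22 and 0.22. The mean over the probes of a gene gave 2 genes at least 1 higher, a median of 0.23 and a difference of 0.25, and members by current symbol 0.18 and 0.19. The difference was 0.16 among only probes well above background, and 0.15 against equally bright probes, a comparison chosen after seeing the data. Under median centring these turned from lower to above 0: Mrps18c (0.62 and 0.55), Mrps16 (0.69), Mrpl33 (0.84), Mrpl23 (0.88), Mrpl24 (0.11), Mrpl20 (0.49), Mrpl52 (0.75) and Mrpl18 A_51_P210474 (1.20). Mrps18a, not called, read 1.24 there, 0.000253 with the median spot intensity and -0.014 to 0.00653 with 1 array left out, the positive value coming without replicate 3. The 8 highest member probes shared 7 with those under median centring and the 8 lowest shared 1; with the scanner log ratio and the offset of 0 these were 6 and 7, and with the median spot intensity, normalization between arrays, outlier spots kept or 1 array left out they were 8 and 8. Beside these, named probes whose call was lost under at least 1 alternative were Mrpl18 A_51_P210474 and A_52_P649258, Mrps5 A_51_P493270 and A_52_P333241, and Mrps18b A_52_P207964 and A_52_P450965, and calls were gained for Mrps5 A_52_P147870 and A_52_P650288 and Mrps18b A_51_P237281. A one-sample t-test of the log2 ratios against 0, with Benjamini-Hochberg adjustment, called 51 members higher and 18 lower. The paper names a t-test between groups and states no test for the arrays. Dim spots limit what can be read: 17 member probes read no more than 1.5 times the negative controls in Cy3. The cause of the moves was not tested. No paired analysis was possible because the design holds 1 group.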
